A study of Mus musculus with 9 samples.

Results

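The Bcl2 family decides at the outer mitochondrial membrane whether a stressed cell dies by apoptosis, and 10 of its genes were examined here among the 23997 gene symbols measured in purified mouse retinal ganglion cells (RGCs). The genes were taken by name: the anti-apoptotic guardians Bcl2, Bcl2l1 (Bcl-xL), Bcl2l2 (Bcl-w) and Mcl1, the pore-forming effectors Bax and Bak1, and the BH3-only initiators Bbc3 (Puma), Pmaip1 (Noxa), Bcl2l11 (Bim) and Hrk. All 10 were listed in every library. Of these, 7 reached the mean of 0.5 scaled FPKM needed for testing, and Bak1, Pmaip1 and Hrk did not.

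RGCs came from C57BL/6J mice whose age is given as 8 weeks, by immunopanning on an antibody against Thy1.2 after 3 negative selection steps. Control eyes received a saline injection into the anterior chamber, and the eyes of both other groups received polystyrene microbeads and were followed for 2 weeks. Bead-injected eyes were assigned by their average IOP rise to Mild IOP (the smaller rise) or Moderate IOP (the larger rise). RNA from the retinas of a group was combined into a single pool, with fewer retinas in the Moderate IOP pool, and each pool was divided into 3 technical replicates. The 9 libraries therefore held 3 pools, so SDs and p-values cover the spread between libraries made from 1 pool and not the spread between animals. Any other difference between the pools cannot be told apart from the IOP group.

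In healthy neurons the guardians hold Bax and Bak1 inactive. BH3-only proteins, induced or activated by stress, bind the guardians or the effectors through a short helix named BH3, and released effectors let cytochrome c out of mitochondria. Bax is known as the effector on which death of RGC bodies depends after optic nerve injury and in inherited mouse glaucoma. The helix is a feature that guardians, effectors and BH3-only proteins share, so its coding bases are shown for 6 of the tested members. They were read from GENCODE M21 transcripts (GRCm38, the same assembly as mm10), 5′ to 3′ along the coding strand, and the capitals mark the 18 bases of the core, 6 codons that run from a leucine to a glycine-aspartate pair.
Bax: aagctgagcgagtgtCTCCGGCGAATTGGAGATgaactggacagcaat
Bcl2l1: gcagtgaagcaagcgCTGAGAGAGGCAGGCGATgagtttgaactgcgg
Mcl1: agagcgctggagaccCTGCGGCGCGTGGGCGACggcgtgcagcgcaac
Bcl2l11: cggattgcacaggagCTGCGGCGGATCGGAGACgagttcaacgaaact
Bbc3: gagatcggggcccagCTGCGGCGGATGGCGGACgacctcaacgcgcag
Bcl2l2: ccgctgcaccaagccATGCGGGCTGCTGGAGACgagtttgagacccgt
The strict core was found once in each of 7 of the 9 members searched. Bbc3 and Bcl2l2 held only a relaxed form, in which the first codon may also be methionine and the glycine codon alanine. Bbc3 and Bcl2l11 shared 15 of the 18 core bases, the most of any pair, and Bcl2l2 and Bak1 shared 6. The stretch of Bax lies in exon 3 of 6 (chr7:45465991-45466038, minus strand) and that of Bcl2l1 in exon 2 of 3 (chr2:152829691-152829738, minus strand). Those of Mcl1 (chr3:95659421-95659468), Bcl2l11 (chr2:128147135-128147182), Bbc3 (chr7:16313758-16313805) and Bcl2l2 (chr14:54884502-54884549) lie on the plus strand. FPKM are given per gene, so the values below do not show which isoforms with or without this stretch were present.

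The unit is FPKM, a fragment count divided by transcript length and by the mapped fragments of its library, and each library was further divided by a scaling factor. Library depth, derived from the confidence intervals in the files, lay between 4840000 and 8800000 fragments. A single short RNA gene took 20.5% of all FPKM in Mild IOP replicate 2 (Mir1249) and 9.1% in Moderate IOP replicate 3 (Mir8104), against at most 3.6% for the top gene elsewhere, and the scaling factors do not depend on such genes. Levels are scaled FPKM, as mean ± SD (n = 3 technical replicates) where an SD is given, and being per length they can be compared between genes. Among the 10 members, a single gene dominated each side in the Control RGC preparations. Markers of other cells were present there too. The list of 8 amacrine markers summed to 1230 ± 57.8 in Control and that of 11 RGC markers to 1520 ± 44.2. The part of each cell type in the levels of the members was not tested. Pro-apoptotic relatives outside the 10, such as Bad, are given further below. Bax stood highest, at 74.6 ± 7.06, above 89.3% of the tested genes, and Bcl2l1 followed at 57.0 ± 1.27, above 86.3% of them. Mcl1, a guardian with a short-lived protein, came next at 12.2 ± 1.91. Bbc3 (5.19 ± 2.2), Bcl2l2 (3.85 ± 2.19) and Bcl2 (2.6 ± 0.942) followed, and the ranges of neighbors in this trio overlapped. Bcl2l11 stood at 0.814 ± 0.397. The ranges of the first 4 members did not overlap in Control, whereas in Mild and Moderate IOP the ranges of Bax and Bcl2l1 did.

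**Figure D1:**
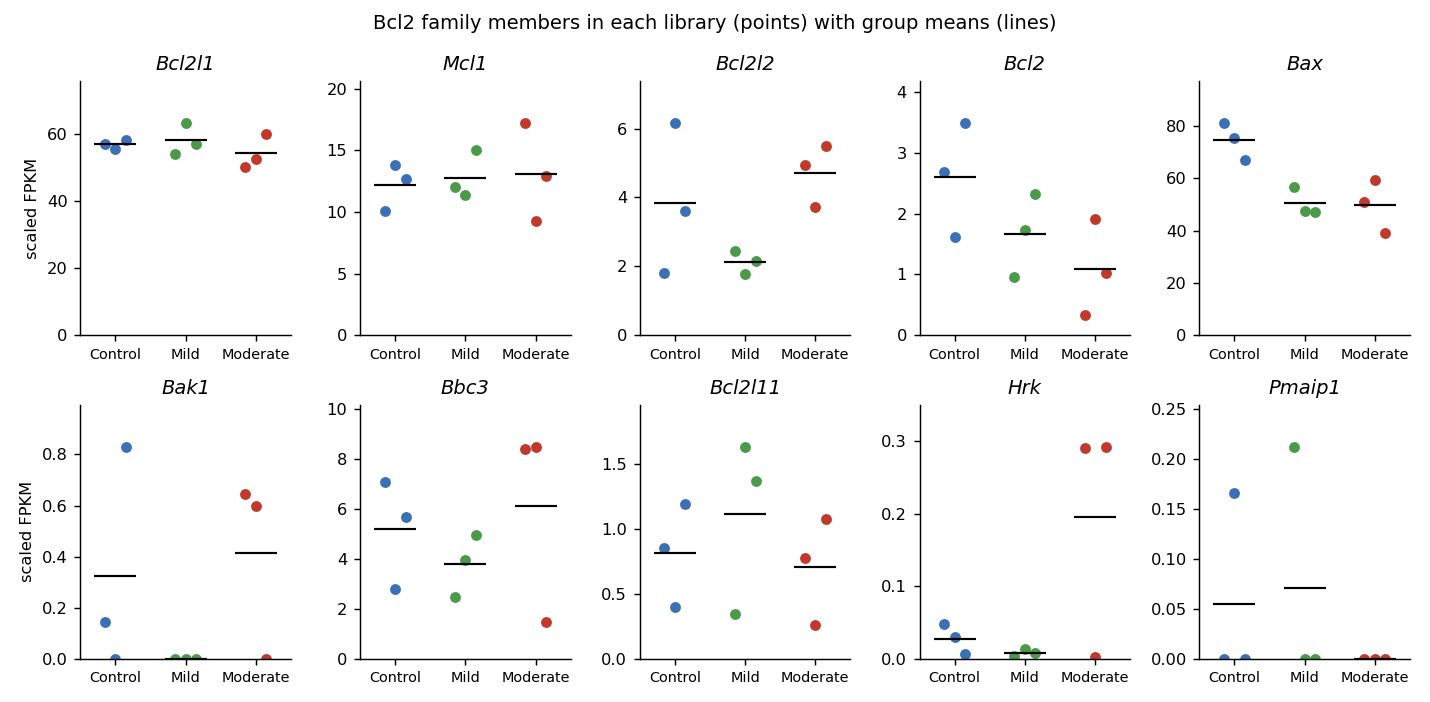
Scaled FPKM of each of the 10 members (vertical axis, linear, its own range per panel) in the 3 Control (blue), 3 Mild IOP (green) and 3 Moderate IOP (red) libraries, with lines at group means. Only in the Bax panel do all IOP libraries lie below all Control libraries.

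Bax carried the clearest difference between Control and elevated IOP, yet it did not pass the test. It was at 81.1, 75.5 and 67.1 in the Control replicates, 56.8, 47.6 and 47.1 at Mild IOP, and 50.9, 59.6 and 39.2 at Moderate IOP. Every IOP library lay below every Control library, and the Mild and Moderate IOP libraries overlapped each other. Between 153 and 446 fragments stood behind each of these values. Log2 fold-changes, here and below, are differences of means of log2(scaled FPKM + 1), fitted with limma over 13043 genes with FDR by Benjamini-Hochberg. In Mild IOP the log2 fold-change of Bax was −0.55 (standard error 0.16, 95% interval −0.92 to −0.19, unadjusted p = 0.00617, FDR = 0.24, limma). In Moderate IOP it was −0.59 (standard error 0.16, 95% interval −0.95 to −0.22, unadjusted p = 0.00439, FDR = 0.14, limma). Both comparisons use the same Control libraries, so a deviation of that pool would enter both. With each comparison taken alone, a fully lower group was found for 9.13% of all tested genes at Mild IOP and 9.48% at Moderate IOP. The share of genes fully lower in both IOP groups was not counted. Moderate against Mild IOP gave −0.03 for Bax (95% interval −0.39 to 0.33, FDR = 0.94).

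Of the marker lists, only those of rods and lens had median log2 fold-changes below 0 in both IOP groups, the direction of Bax. At Mild and Moderate IOP the medians were 0.25 and 0.28 for bipolar genes, 0.07 and 0.02 for Muller glia genes and 0.13 and 0.19 for microglia and macrophage genes. Signs differed between the IOP groups for amacrine genes (0.07 and −0.16) and cone genes (−0.08 and 0.23). The summed level of 8 rod photoreceptor genes was 571, 533 and 498 in Control, 358, 374 and 380 at Mild IOP, and 345, 358 and 372 at Moderate IOP. All 8 had log2 fold-changes below 0 in both IOP groups, with a median of −0.51 in Mild and −0.59 at Moderate IOP, and none was at 0 in every library. Sag, the visual arrestin and the most abundant of them, had log2 fold-changes of −0.78 with Mild IOP (FDR = 0.063, limma) and −0.73 with Moderate IOP (FDR = 0.041). Pde6b passed at Moderate IOP alone. Of 5 lens genes, Cryaa, Crygs, Cryba1 and Crybb2 fell in each IOP group, and the list went from sums of 312, 343 and 287 in Control to 2.07, 2.63 and 1.65 at Mild IOP and 5.71, 0.443 and 3.31 at Moderate IOP. Cryaa was the most abundant lens gene, and Crygs and Cryba1 were listed at 0 in all 6 IOP libraries. The fifth, Bfsp1, was at −0.04 at Mild IOP (FDR = 0.98) and 0.29 at Moderate IOP (FDR = 0.75). The part of these cells in the level of Bax was not tested, and in such bulk samples fewer cells of a type and less RNA per cell cannot be told apart.

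RGC markers summed lowest at Mild IOP and highest at Moderate IOP. The sum of 11 RGC genes, led by Sncg, was 1470, 1560 and 1520 in Control, 1330, 1080 and 1330 at Mild IOP, and 2470, 2310 and 2310 at Moderate IOP, with none at 0 in every library. Sncg and Nefl rose at Moderate IOP (log2 fold-changes 0.61 and 0.65, FDR = 0.071 and 0.011), and 0 of the 11 passed at Mild IOP, where Sncg was at −0.52 (FDR = 0.20). Of the 11, 9 had log2 fold-changes below 0 at Mild IOP (median −0.19), and 9 were above 0 at Moderate IOP (median 0.50), with Pou4f2 (−0.10) and Pou4f3 (−0.15) below. The sum of 8 amacrine genes, led by Gad1, was 1230 ± 57.8 in Control, 1260 ± 54.3 at Mild IOP and 968 ± 32.9 at Moderate IOP. Among them, 0 of 7 tested passed at Mild IOP, and Gad2 and Slc6a9 fell at Moderate IOP. The list was divided at Moderate IOP, with 4 log2 fold-changes below 0 and 3 above (Tfap2a 0.49, FDR = 0.35). Rlbp1 of the 5 tested Muller glia genes rose at Moderate IOP, where 3 log2 fold-changes were above 0 and 2 below, Dkk3 among the latter (−0.20). None of the tested cone (4), bipolar (6), astrocyte (1), microglia and macrophage (6) or endothelial (1) markers passed against Control at either IOP level, and the endothelial genes Cldn5 and Cdh5 were listed at 0 in every library. Between Moderate and Mild IOP, the RGC markers Rbpms, Sncg, Thy1, Pou4f1, Nefl and Nefm, the bipolar marker Pcp2 and the Muller glia marker Glul were higher, and the amacrine markers Gad1, Gad2 and Slc6a9 lower. In that comparison all 11 RGC genes had log2 fold-changes above 0, while the lists of these other markers were divided, with 3 above and 3 below among bipolar genes (Grm6 −0.64), 3 above and 2 below among Muller glia genes (Dkk3 −0.27) and 3 above and 4 below among amacrine genes (Tfap2a 0.42). The most abundant markers of the remaining lists were Opn1mw (cone), Pcp2 (bipolar), Dkk3 (Muller glia), Gfap (astrocyte), C1qa (microglia and macrophage) and Kdr (endothelial).

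Across the family, 0 of the 7 tested members passed an FDR of 0.1 by limma's moderated test in any comparison. The background rates were 0.399% of tested genes at Mild IOP against Control, 1.84% at Moderate IOP against Control and 10.2% in Moderate against Mild IOP, so few calls fall on any 7 genes. At an unadjusted p below 0.05 the members were Bax at Mild IOP, Bax and Bcl2 at Moderate IOP, and Bcl2l2 between both IOP groups, where 10.2%, 15.3% and 21.8% of tested genes met that mark. The median log2 fold-change of the 7 tested members was −0.34 at Mild IOP and −0.07 at Moderate IOP, against 0.006 and 0.004 over all tested genes. These medians rest on single libraries: the first was −0.11 without Control replicate 1, −0.20 without Control replicate 2, −0.12 without Mild IOP replicate 1 and −0.51 without Mild IOP replicate 3, and the second ran from −0.27 without Control replicate 2 to 0.05 without Control replicate 3.

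**Figure D2:**
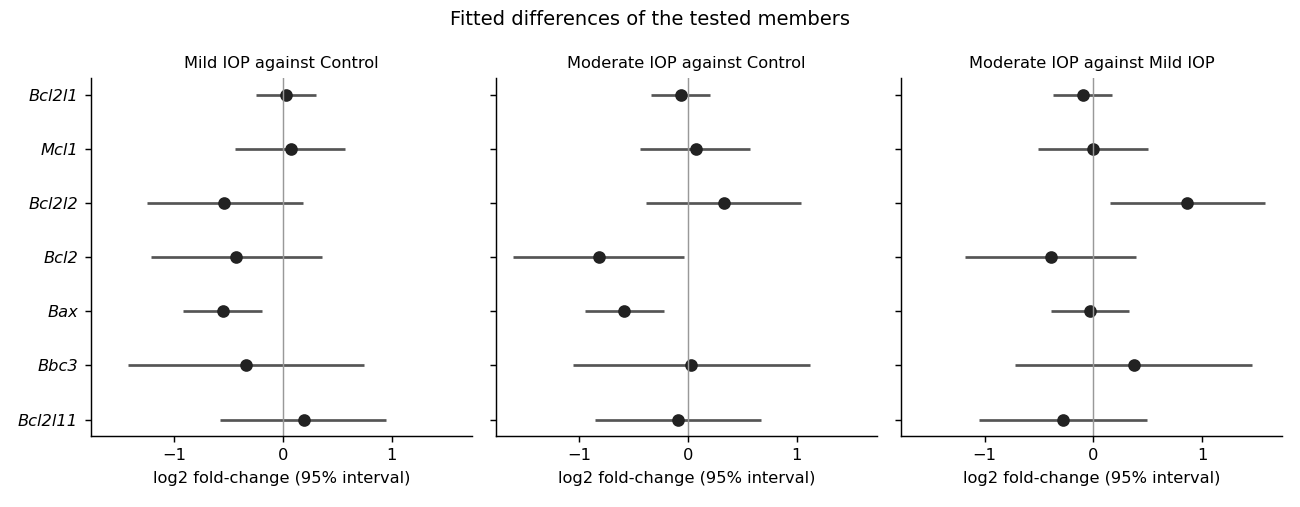
Log2 fold-change (horizontal axis) of the 7 tested members in each comparison, as points with 95% intervals from limma. Intervals leave out 0 for Bax in both comparisons with Control, for Bcl2 at Moderate IOP, and for Bcl2l2 between the IOP groups, and none of these passed an FDR of 0.1.

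Among the guardians, Bcl2l1 held the narrowest interval. Bcl2l1, the main survival protein of mature neurons, was at 57.2, 55.7 and 58.3 in Control, 54.1, 63.3 and 57.2 at Mild IOP, and 50.2, 52.6 and 60.1 at Moderate IOP, with 497 to 855 fragments per library. The groups overlapped. Its fold-change at Mild IOP was 1.02 with a 95% interval of 0.844 to 1.23 (FDR = 0.97, limma), and at Moderate IOP 0.951 with an interval of 0.788 to 1.15 (FDR = 0.82). Its locus overlaps Cox4i2 on the other strand, which ranged from 1.63 to 13.5 scaled FPKM, and no source used here says that strand was kept, so reads of the pair cannot be told apart. Mcl1 was also level, at 12.8 ± 1.95 at Mild IOP and 13.1 ± 3.98 at Moderate IOP, with a log2 fold-change of 0.07 in each (95% interval −0.44 to 0.57 in both). The Moderate IOP replicates of Mcl1, at 17.2, 9.24 and 12.9, spanned the whole range of the Control replicates, at 10.1, 13.8 and 12.7.

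Bcl2l2 and Bcl2, the low-abundance guardians, had wider intervals. Bcl2l2 was at 1.8, 6.15 and 3.6 in Control, 2.45, 1.78 and 2.15 at Mild IOP, and 4.94, 3.71 and 5.49 at Moderate IOP. Each IOP group of Bcl2l2 overlapped the wide Control replicates, while every Moderate IOP library lay above every Mild IOP library, as in 14.5% of tested genes. That direct difference was 0.86 on the log2 scale (standard error 0.33, 95% interval 0.15 to 1.58, FDR = 0.15, limma). It passed in 2 of the alternative fits, with the spread taken from both IOP groups alone (FDR = 0.089) and without Control replicate 1 (FDR = 0.092), within a range of 0.089 to 0.38 over 18 alternatives.

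Bcl2, the founding member, was at 2.69, 1.62 and 3.49 in Control, 0.962, 1.73 and 2.33 at Mild IOP, and 0.325, 1.92 and 1.03 at Moderate IOP. Its groups overlapped, and the log2 fold-change at Moderate IOP was −0.82 (standard error 0.36, 95% interval −1.61 to −0.04, FDR = 0.31, limma). The lowest Moderate IOP value rested on 5.15 fragments, against 43.1 and 36.3 in the others. Without that library, Moderate IOP replicate 1, the log2 fold-change was −0.53 (FDR = 0.52), and with a pseudocount of 0.1 it was −1.38 (FDR = 0.32). The transcript length implied by fragments, FPKM and depth ranged from 2620 to 6350 nt between libraries for Bcl2, a ratio of 2.42, whereas for Bax, Bcl2l2, Mcl1 and Bbc3 this ratio was between 1.03 and 1.07. It was 1.43 for Bcl2l11 and 1.3 for Bcl2l1. FPKM and derived fragments of Bcl2 thus did not run closely together between libraries. As the fragments were derived from confidence intervals, which of these quantities was off cannot be told, and this was not tested. The 2 annotated transcripts of Bcl2 are 2841 and 7191 nt long.

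Neither tested BH3-only gene passed, and Bbc3 had the largest standard error of the 7 tested members. Bbc3, a p53-inducible initiator, was at 7.1, 2.78 and 5.68 in Control, 2.46, 3.95 and 4.94 at Mild IOP, and 8.4, 8.48 and 1.46 at Moderate IOP. The Moderate IOP pool gave the 2 highest values and the lowest value of all 9 libraries, so its log2 fold-change there was 0.03 with a 95% interval of −1.06 to 1.12 (FDR = 0.98, limma). Bcl2l11, which is induced in neurons deprived of trophic factors, ranged from 0.26 to 1.63 over the libraries on 5.96 to 35.9 fragments, and its log2 fold-changes were 0.19 at Mild IOP (FDR = 0.91) and −0.09 at Moderate IOP (FDR = 0.93). Leaving out single libraries moved the value at Mild IOP between 0.00 (without Mild IOP replicate 2) and 0.48 (without Mild IOP replicate 1).

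Hrk, Pmaip1 and the effector Bak1 rested on fewer than 10 fragments in every library. Hrk, a BH3-only gene of the nervous system, was at 0.291, 0.00248 and 0.292 at Moderate IOP, from 8.0 and 9.22 fragments in the higher libraries, and at or below 0.0474 in the 6 other libraries. Pmaip1 was listed at 0 in 7 libraries and rested on 4.0 fragments in each of the others, 1 Control and 1 Mild IOP library. Bak1 was at 0.144, 0 and 0.829 in Control, listed at 0 in all Mild IOP libraries, and at 0.644, 0.597 and 0 at Moderate IOP, with no more than 9.59 fragments in any. Bak1 overlaps Ggnbp1 on the other strand. All were below the filter on low values. With no filter they were fitted too, and 0 of the 10 members passed in any comparison.

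Bcl2l1 made up between 69.1% and 81.0% of the summed FPKM of the guardian members. Bax made up between 83.4% and 95.7% of the summed FPKM of the effector and BH3-only members. The sums therefore followed these genes. The guardian sum was 75.7 ± 3.45 in Control, 74.8 ± 4.65 at Mild IOP and 73.2 ± 6.02 at Moderate IOP. The pro-apoptotic sum was 81.0 ± 7.47, 55.5 ± 3.75 and 57.3 ± 13.8 in the same order. The ratio of Bax to Bcl2l1 within a library was 1.42, 1.36 and 1.15 in Control, 1.05, 0.751 and 0.824 at Mild IOP, and 1.01, 1.13 and 0.653 at Moderate IOP. Bax therefore exceeded Bcl2l1 in all Control libraries and in 3 of the 6 IOP libraries. The highest Moderate IOP ratio, 1.13, was close to the lowest Control ratio, 1.15. Without Bax the pro-apoptotic sum was 6.41 ± 2.63 in Control, 4.97 ± 1.73 at Mild IOP and 7.43 ± 3.99 at Moderate IOP, and the groups overlapped. These ratios are transcript levels and carry no test, since they combine members.

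**Figure D3:**
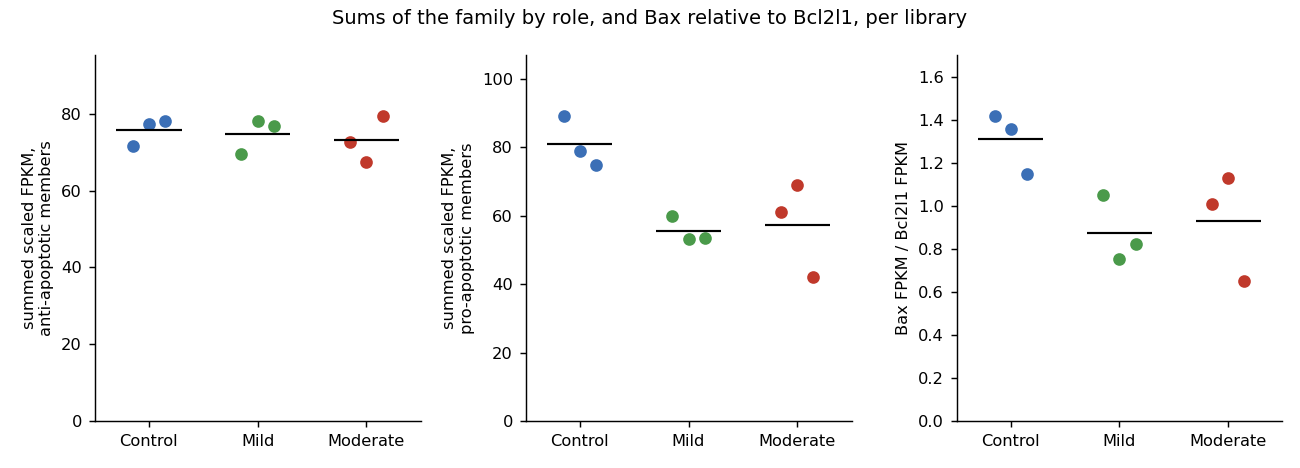
Summed scaled FPKM of the 4 guardians (left), summed scaled FPKM of the 6 effector and BH3-only genes (middle) and the ratio of Bax to Bcl2l1 (right) in each library, on axes from 0, with lines at group means. Guardian sums overlapped between groups, and the 6 IOP libraries lay below Control in the other panels.

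Replicates of a pool differed by more than counting error, and members differed in this respect. The spread between replicates was divided by the error that the number of fragments allows, so that 1 would mean counting error alone. Over 11168 tested genes with at least 5 fragments in every library the median of this ratio was 2.85. Bcl2l1 had a ratio of 1.85, and 5.67% of genes with a similar number of fragments lay below it. Bax had one of 2.1, with 15.8% below. Bbc3 had a ratio of 3.19, above 82.4% of such genes, and Mcl1 one of 3.62, above 75.2%. The standard error of the log2 fold-change was 0.50 for Bbc3 and 0.16 for Bax.

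**Figure D4:**
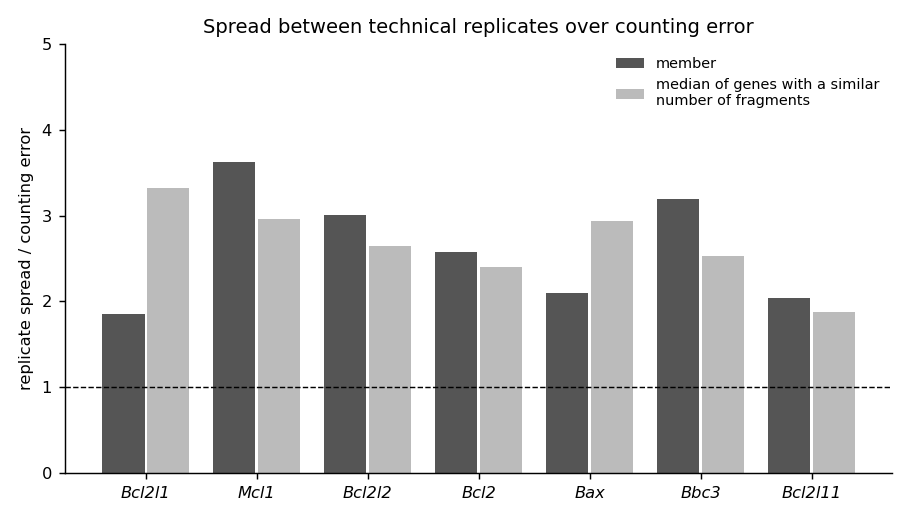
Spread between technical replicates divided by the counting error (vertical axis, from 0) for the 7 tested members (dark bars) and the median of genes with a similar number of fragments (light bars), with a dashed line at 1. Bcl2l1 and Bax stand below their light bars and the other members above theirs.

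Genes outside the 10 members were examined as 4 written lists. An unadjusted p below 0.05 was met by 10.2% of all tested genes at Mild IOP, 15.3% at Moderate IOP and 21.8% between the IOP groups. Of 17 further family genes, 8 were tested and 0 passed in any comparison (limma; 0, 0 and 1 had an unadjusted p below 0.05), with median log2 fold-changes of −0.02 at Mild IOP and 0.09 at Moderate IOP. The mitophagy receptors Bnip3 and Bnip3l were the most abundant, at 290 and 99.2 scaled FPKM in Control, and had FDRs of 0.48 or above throughout. The genes Bad and Bok were picked here after their values were seen, as abundant pro-apoptotic relatives. Bad, a BH3-only gene controlled by phosphorylation, was at 60.5 ± 7.07 in Control, 46.3 ± 12.3 at Mild IOP and 67.4 ± 15.9 at Moderate IOP (FDR = 0.58 and 0.81). Bok, an effector-like gene, was at 26.1 ± 1.66, 23.0 ± 5.68 and 19.9 ± 3.19 (FDR = 0.80 and 0.37). In these RGC preparations both thus stood far above Bak1. The Bcl2a1 genes are near-identical copies that can share reads and were not read further.

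Downstream of the family, 19 of 22 genes of mitochondrial permeability and execution were tested and 0 passed against Control at either IOP level (limma). At each level 4 had an unadjusted p below 0.05, as did 10.2% of all tested genes at Mild IOP and 15.3% at Moderate IOP. Between Moderate and Mild IOP, 2 passed and both were higher at Moderate IOP, against a background of 7.03% of tested genes higher. Cycs, the cytochrome c gene, was at 94.6, 90.5 and 120 in Control, 74.4, 74.5 and 86.8 at Mild IOP, and 130, 140 and 151 at Moderate IOP. The groups of Cycs did not overlap, with Mild IOP lowest and Moderate IOP highest. Its direct difference was 0.83 on the log2 scale (standard error 0.14, FDR = 0.0092, limma), while the comparisons with Control gave −0.36 (FDR = 0.38) and 0.47 (FDR = 0.15). Processed copies of Cycs elsewhere in the genome can share its reads. Endog, a mitochondrial nuclease, was at 24.5, 19.0 and 18.4 in Control, 16.3, 9.44 and 13.8 at Mild IOP, and 29.5, 26.6 and 20.0 at Moderate IOP. The IOP groups of Endog did not overlap, and their log2 difference was 0.91 (standard error 0.22, FDR = 0.038). A Moderate IOP group fully above Mild IOP, as for Cycs and Endog, was found for 14.5% of tested genes. The channels Vdac3 and Vdac1 were the most abundant of the list, and neither passed in any comparison.

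Upstream, 19 of 20 genes of p53, JNK and stress signaling were tested and 0 passed in any comparison (limma), with medians of 0.02 at Mild IOP and −0.09 at Moderate IOP. Of the 19, 3, 1 and 3 had an unadjusted p below 0.05, beside 10.2%, 15.3% and 21.8% of all tested genes. The stress factors Atf4 and Ddit3 led this list at 230 and 154 in Control, and their log2 fold-changes were −0.43 and −0.50 at Mild IOP (FDR = 0.31 and 0.43) and −0.05 and −0.09 at Moderate IOP (FDR = 0.90 and 0.87). Of 9 genes that act on the turnover or phosphorylation of family proteins, 0 passed against Control, and 1 and 2 had an unadjusted p below 0.05, beside the same 10.2% and 15.3%. The 14-3-3 gene Ywhae passed between the IOP groups, where 10.2% of all tested genes passed. It was at 164 at Mild IOP and 218 at Moderate IOP (log2 difference 0.41, standard error 0.12, FDR = 0.065). The most abundant of these, the phosphatase gene Ppp2ca and the 14-3-3 gene Ywhaz, did not pass.

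**Figure D5:**
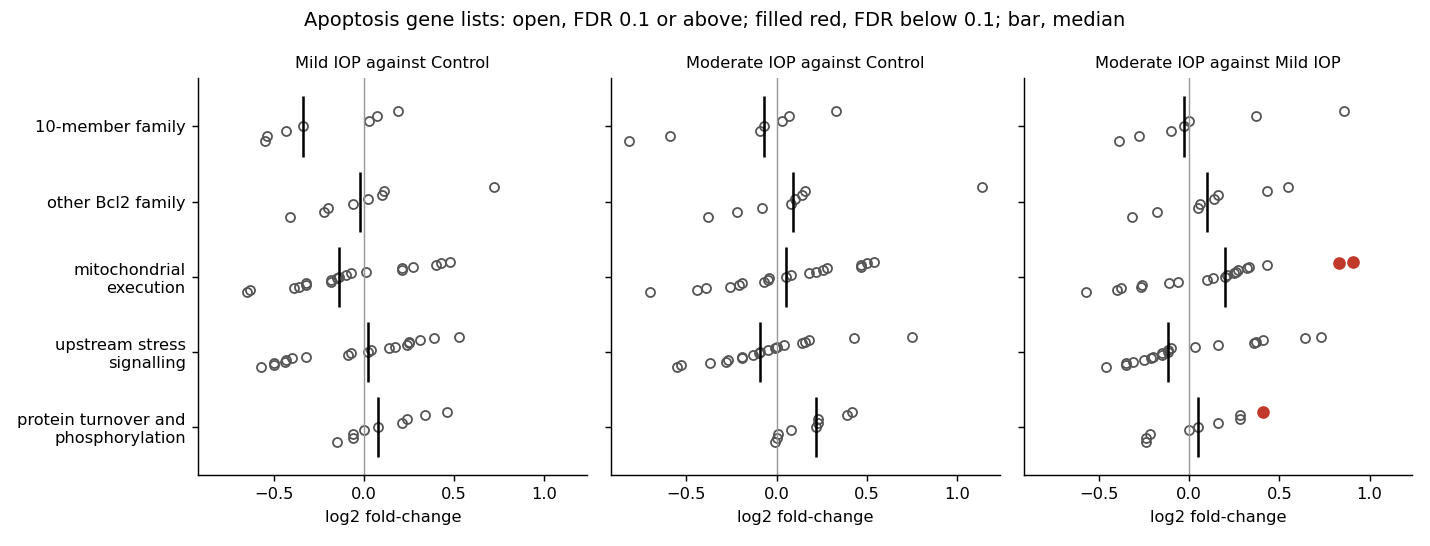
Log2 fold-change (horizontal axis) of each tested gene of the family and of the 4 further lists in each comparison, with bars at list medians. Filled red points passed an FDR of 0.1: they are Cycs, Endog and Ywhae, all between Moderate and Mild IOP.

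The genes whose values ran most like those of Bax over the 9 libraries were Aldh18a1 (Pearson r = 0.95), Ppm1m (0.92) and Gtl3 (0.92) on the log2 scale. Aldh18a1, an enzyme of proline synthesis, stood at 25.0 ± 1.06 in Control, 18.9 ± 0.451 at Mild IOP and 19.0 ± 1.86 at Moderate IOP. In all, 5 genes had r above 0.9 with Bax. Among the members themselves the highest r was 0.72, between Bcl2l1 and Bcl2l11, and the lowest was −0.48. These correlations describe 9 libraries from 3 pools, and libraries of a pool share their source RNA.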

How the data were processed

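Members and gene lists were chosen with earlier results of these data known. Per the paper's methods and the labels, the authors aligned reads to mm10 and estimated expression with cufflinks, and the deposited values are FPKM per gene with a confidence interval for each of the 9 libraries. The methods name bowtie2 and the processing notes of the labels name TopHat2. Where a symbol had several loci their FPKM were added, 2 symbols with a failed estimate were left out, and libraries were divided by median-of-ratios factors (0.983 to 1.058). Genes with a mean of at least 0.5 scaled FPKM (13043) were fitted as log2(scaled FPKM + 1) with limma 3.58.1 in R 4.3.3, with group means over all 9 libraries, a variance trend and Benjamini-Hochberg adjustment per comparison, and the FDR threshold was 0.1. FPKM are not counts, so no count test was run. Fragments behind a value were derived from the width of its confidence interval, and depth from those fragments over well covered genes with 1 annotated transcript (GENCODE M21) of 2000 nt or longer, so depth is approximate. In a simulation of 13043 genes for Moderate IOP against Control, 65 of 100 genes changed by 1 on the log2 scale and 93 of 100 changed by 2 were recovered, with 18 false calls. The changed genes were drawn only from those with a mean log2(scaled FPKM + 1) above 2, so genes as low as Bcl2 and Bcl2l11 were not covered. Its noise was normal, independent between libraries and sized by the spread within pools, so differences between animals were not imitated. All members are named, from each gene list the genes past the threshold and the 2 most abundant, and from each marker list the genes past the threshold and the most abundant, with exceptions stated. Marker lists covered RGCs, amacrine cells, rods, cones, bipolar cells, Muller glia, astrocytes, microglia, endothelium and lens. BH3 cores were located by translating transcripts, as protein sequences were not used here. Pmaip1 was not searched. Figures were made in Python 3.11.15 with matplotlib 3.10.9. Testing by cuffdiff, as in the study, was not repeated. The individual values of 1 marker gene are not reported here.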

Additional observations from a re-analysis of the deposited data

Results flagged for a closer look

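For 3 genes of the written lists the log2 fold-change at Moderate IOP differed from that at Mild IOP, both measured against the same Control libraries. Each group was a single pool, so these are differences between pools. Cycs differed by 0.83 on the log2 scale (limma, FDR = 0.0092), Endog by 0.91 (FDR = 0.038) and Ywhae by 0.41 (FDR = 0.065), each by the direct test between the IOP groups. They were 2 of 19 tested execution genes and 1 of 9 turnover and phosphorylation genes, with 0 of the 7 tested members, 0 of 8 other family genes and 0 of 19 stress genes, where 10.2% of all tested genes passed. At an unadjusted p below 0.05 these last lists had 1, 1 and 3, beside 21.8% of all tested genes. For Bcl2l2 the fitted difference was 0.86, with every Mild IOP library below and every Moderate IOP library above the Control mean on the log2 scale. That arrangement was not tested as such, and the direct difference of Bcl2l2 did not pass (FDR = 0.15). The share of all tested genes so arranged was not counted, while a Moderate IOP group fully above Mild IOP was found for 14.5%. The place of the Control mean rests on single libraries: the log2 fold-change at Moderate IOP was 0.33, and −0.02 without Control replicate 1. Groups of 3 libraries are too small for a search for single outlying values.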

How the results depend on the processing

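Over 18 alternatives the 7 tested members gave 375 alternative log2 fold-changes, of which 2 passed an FDR of 0.1 (both Bcl2l2, Moderate against Mild IOP). Bax kept its sign against Control in all of them, between −0.64 and −0.47 in Mild IOP (FDR 0.20 to 0.58) and between −0.72 and −0.43 in Moderate IOP (FDR 0.12 to 0.33). The number of members passing stayed at 0 in both comparisons with Control and was 1 between the IOP groups with compared groups only, and 0 to 1 when single libraries were left out. DEGs here are genes with an FDR below 0.1 in the limma fit described above. There were 52 in Mild IOP, and they numbered 28 with 75th percentile scaling, 24 with no filter, 25 with the replicate block and 23 with compared groups only. In Moderate IOP there were 240 in that fit, and they numbered 135 with the replicate block and 144 with compared groups only. Leaving out each library in turn gave 15 to 175 DEGs at Mild IOP, with 18, 23 and 20 without Control replicates 1, 2 and 3, 18, 15 and 175 without Mild IOP replicates 1, 2 and 3, and 20 without Moderate IOP replicate 2. At Moderate IOP the range was 61 to 285, with 61 and 89 without Control replicates 1 and 2, 141 without Mild IOP replicate 1, and 146 and 110 without Moderate IOP replicates 1 and 2. Between the IOP groups, with 1324 in that fit, it was 518 to 1398, with 742 and 518 without Mild IOP replicates 1 and 2 and 780 without Moderate IOP replicate 2. The cause was not tested. Signs changed in 14 fits, all of them values whose FDR was at least 0.68. That count leaves out Mcl1 between the IOP groups, whose main value rounded to −0.0. Over the alternatives Mcl1 ran there from −0.20 to 0.21. Bbc3 at Moderate IOP was −0.03 with a pseudocount of 0.1 and between −0.29 and 0.68 when single libraries were left out. Likewise, leaving out single libraries gave −0.05 to 0.16 for Mcl1 and −0.04 to 0.08 for Bcl2l1 at Mild IOP, −0.14 to 0.28 for Mcl1, −0.02 to 0.66 for Bcl2l2 and −0.27 to 0.11 for Bcl2l11 at Moderate IOP, and −0.17 to 0.13 for Bax between the IOP groups. Same-numbered libraries shared only a number: their deviations from group means correlated between −0.005 and 0.044, 4 of 9 libraries correlated best with their own number, and the replicate block changed no call of a member. Values of Bcl2l11 and Bcl2 on under 10 fragments are imprecise.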
